A study of Mus musculus with 6 samples.

Results

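The Schwann cell and cutaneous nerve genes comprised 8 genes, Sox10, Mbp, Cdh19, Fabp7, Tubb3, Stmn2, Ngfr and S100b. They were taken by name, together with every probe set that the platform annotation assigns to exactly 1 of them, which gave 21 probe sets for 8 of the 18193 genes annotated on the array. Mouse skin of embryonic day 16.5 was compared between 3 samples labelled Tcfap2c mutant and 3 labelled control. Each RNA was hybridised to 1 one-colour Affymetrix array. The labels state neither the allele, the promoter of any transgene, the strain nor the litter, and the description field of the control samples also speaks of the mutation. Titles and source names place those samples in the control group. Since nothing says that the samples came from separate litters, p-values reflect only how these 6 samples scattered.

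The mutated gene, listed today as Tfap2c, makes AP-2 gamma, which regulates transcription in surface ectoderm. Schwann cells, the glia of peripheral nerves, arise from the neural crest and follow growing axons into the embryonic skin. They pass from precursors, marked by Sox10, Cdh19 and Fabp7, to immature Schwann cells that make S100b, and some of them later form myelin, of which Mbp encodes a main structural protein. The axons they accompany belong largely to sensory neurons, whose cell bodies lie in ganglia outside the skin. Tubb3 and Stmn2 are neuronal genes, and Ngfr, the low-affinity neurotrophin receptor p75, is made by both sensory neurons and immature Schwann cells.

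The tissue label fitted its markers, with bright signals for Krt5, Krt14, Krt1, Krt10, Trp63, Col1a1, Col1a2 and Col3a1 on every array. Mutant sample 1 stood apart, since it alone carried high decidual, uterine and smooth muscle transcripts. Prap1, which uterine and gut epithelia secrete, reached 32479 in mutant sample 1, 335 in mutant sample 2 and 190.0 in mutant sample 3, against 11.6, 22.0 and 247 in controls. The signal of Prl8a2, a decidual prolactin-family hormone, was 14204 in mutant sample 1 and at most 61.2 in any other sample. That of Actg2, the smooth muscle gamma actin, was 13445 there and at most 451 elsewhere. Many of the differences are therefore also given without it. Xist marked controls 1 and 2 as female and was also high in mutant sample 1, at 6732. Decidua and uterus are female tissue, so Xist cannot give the sex of mutant sample 1. With either sex for that sample, the sexes were unevenly spread over the groups. Tfap2c itself averaged 1412 ± 175 in mutant skin, against 1290 ± 85 in control skin (SD, n = 3 each), and differed by 0.12 on the log2 scale. Without mutant sample 1 that difference was 0.032, and the dimmer Tfap2c probe sets differed by 0.14 and 0.013 with all samples. The altered part of the gene is not named in the labels, so these values do not check them.

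No transcript of the Schwann cell and nerve set was called higher or lower in mutant skin. Signals were compared as log2(signal + 24.4), and 22518 probe sets above the median level were tested. Of the 21 probe sets, 12 were tested and 0 passed a limma adjusted p of 0.05, where 1 of all 22518 tested probe sets did (0.00444%). At an unadjusted p under 0.05 the count was also 0 of 12, against 3.42% of all tested probe sets. Over all 21 probe sets, 12 had a positive and 9 a negative difference, from -0.63 to 0.38 on the log2 scale. Without mutant sample 1 the counts were 0 of 12 past the adjusted threshold and 1 of 12, an Mbp probe set, at an unadjusted p under 0.05. In that fit 39 of all 22518 tested probe sets passed the adjusted threshold (0.173%). The share of all tested probe sets at an unadjusted p under 0.05 was not counted there. With 1 probe set per gene, the brightest, 4 genes lay above and 4 below 0, with a median of -0.0084, against -0.0010 over all 18193 genes. Bulk skin cannot tell fewer cells of a type from less RNA per cell.

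The 9 probe sets left untested were those of Cdh19, Tubb3 and S100b and the dimmer ones of Sox10, Mbp and Ngfr. Most of their differences lay farther from 0 with an added constant of 1, but that of the S100b probe set 1434342_at did not (0.042, against 0.047). The 95% intervals of the 12 tested differences reached from -0.97 to 1.05 on the log2 scale at their widest, that is, from 0.511-fold to 2.07-fold. A true difference anywhere within its interval remains compatible with the 3 samples a group.

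**Figure D1:**
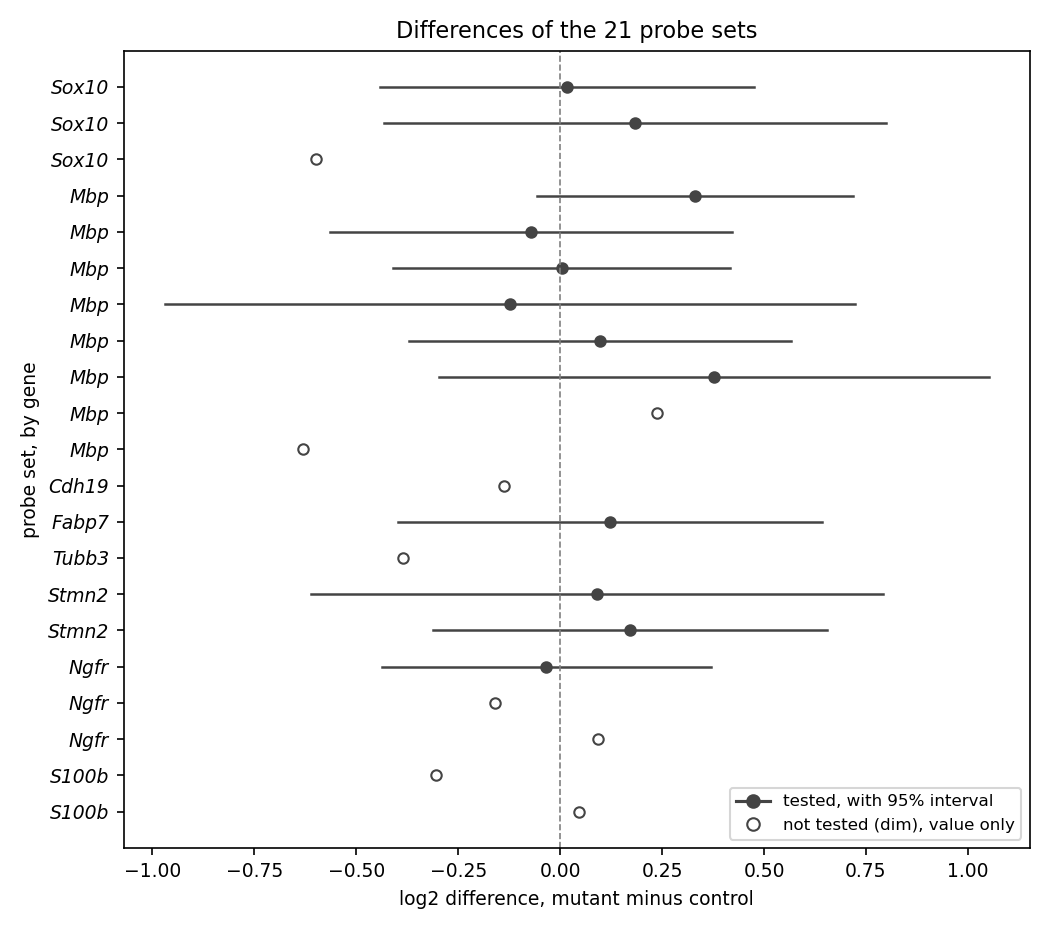
Each row is 1 of the 21 probe sets, ordered by gene, and the horizontal axis is the log2 difference, mutant minus control. Filled points carry the 95% interval of the limma fit, and open points are probe sets too dim to be tested; every one of the 12 intervals includes 0.

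Sox10, the transcription factor that peripheral glia and melanocytes need throughout their development, was measured by 3 probe sets. Its brightest one (1451689_a_at) had signals of 172, 233 and 222 in mutant samples 1, 2 and 3, against 209, 222 and 185 in control samples. The groups overlapped, with the highest and the lowest value both in mutant skin. The log2 difference was 0.02 (SE 0.20), with a 95% interval from -0.44 to 0.48, and 0.14 without mutant sample 1. The next probe set (1424985_a_at) gave 143, 184 and 179 in mutant and 214, 106 and 131 in control samples. It differed by 0.18 (SE 0.27), or 0.28 without mutant sample 1, and its controls spread more widely than its mutants.

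The dimmest Sox10 probe set (1425369_a_at) lay the other way. Its signals were 9.73, 14.4 and 17.2 in mutant samples, against 42.5, 20.3 and 39.8 in control samples. Mutant and control values did not overlap, and the exact two-sided permutation p was 0.1, the smallest that 3 against 3 samples allow. Non-overlap was seen for 2 of the 21 probe sets and for 8.9% of all 45037 probe sets. All mutant signals of this probe set were below the added constant of 24.4, and its difference of -0.60 became -1.22 with a constant of 1 and -0.23 with a constant of 100.

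Fabp7, the brain lipid-binding protein of glial precursors, was read by 1 probe set. Its signals were 348, 295 and 448 in mutant samples, against 385, 371 and 244 in control samples. Mutant sample 3 was highest and control sample 3 lowest, so each group held 1 of the extremes. The log2 difference was 0.12 (SE 0.23), with a 95% interval from -0.40 to 0.64.

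Cdh19, a cadherin of Schwann cell precursors, fell below the level needed for testing. Its signals were 161, 49.9 and 96.1 in mutant samples, against 137, 84.3 and 101 in control samples. The mutant samples enclosed the whole control range. The difference was -0.14 with all samples, -0.46 without mutant sample 1, 0.20 without mutant sample 2 and 0.021 without control sample 1, so its sign changed with single samples of either group.

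S100b, a calcium-binding protein of Schwann cells that melanocytes and cartilage cells also make, was likewise too dim to be tested. Its brighter probe set (1419383_at) had signals of 84.5, 43.1 and 87.7 in mutant samples, against 93.4, 91.9 and 89.0 in control samples. The groups did not overlap, but mutant samples 1 and 3 lay just under the lowest control and only mutant sample 2 lay far below. The difference was -0.30 and the exact two-sided permutation p 0.1. Without mutant sample 2 the difference was -0.068. The other probe set (1434342_at) gave 61.0, 51.2 and 117 in mutant and 70.2, 67.0 and 71.1 in control samples, with overlapping groups and a difference of 0.05. In both probe sets the mutant samples scattered far more than the controls, with SDs of 24.9 and 35.3 in mutant skin, against 2.26 and 2.17 in control skin (n = 3 each).

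Ngfr was tested through 1 of its 3 probe sets (1454903_at). Its signals were 395, 494 and 340 in mutant samples, against 404, 409 and 433 in control samples. The mutant values lay on both sides of the narrow control range, and the means were 409 ± 78.0 in mutant skin, against 415 ± 15.6 in control skin (SD, n = 3 each). This left a log2 difference of -0.03 (SE 0.18), with a 95% interval from -0.44 to 0.37, and -0.017 without mutant sample 1. Signals of the other probe sets were at most 87.9 in mutant and 71.4 in control samples, with differences of -0.16 and 0.09.

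**Figure D2:**
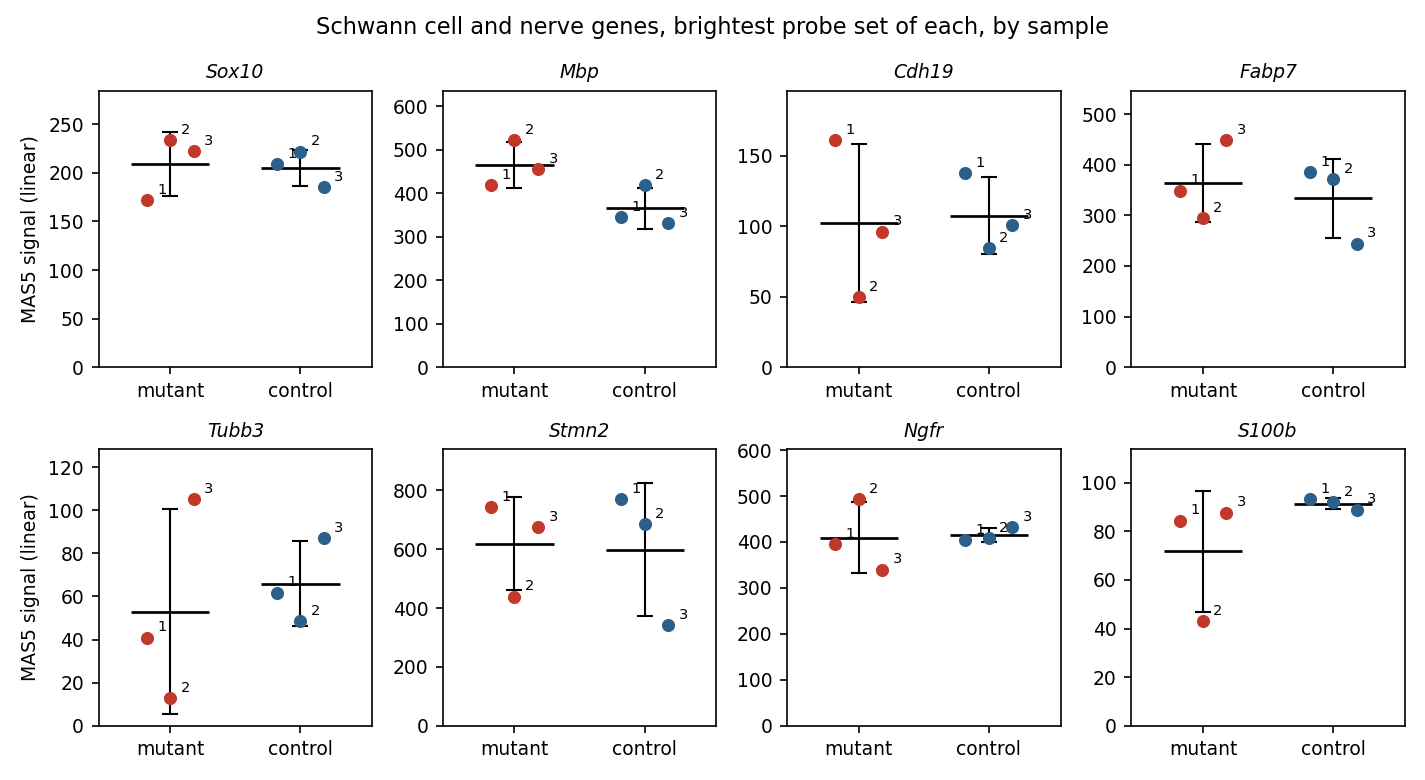
Linear MAS5 signal of the brightest probe set of each gene, with 1 panel a gene; points are single samples numbered 1 to 3, lines are group means and bars are the SD (n = 3). Mutant and control points overlap in every panel but that of S100b, and mutant sample 2 is lowest for Cdh19, Tubb3 and S100b and highest for Sox10, Mbp and Ngfr.

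Mbp, the myelin basic protein gene, had 8 probe sets, 5 with a positive and 3 with a negative difference. The gene gives rise to several transcripts, including the golli forms made outside myelin, and the files do not say which form each probe set reads. The brightest probe set (1425264_s_at) had the smallest p of any tested here. Its signals were 418, 522 and 455 in mutant samples, against 345, 419 and 332 in control samples. Only mutant sample 1 and control sample 2 crossed, by less than 1 unit of signal. The log2 difference was 0.33 (SE 0.17), with a 95% interval from -0.06 to 0.72 and a limma adjusted p of 0.9999 (unadjusted 0.0865). Without mutant sample 1 the difference was 0.40, with an adjusted p of 0.693 (unadjusted 0.0477).

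Other Mbp probe sets did not share that pattern. The next in brightness (1433532_a_at) gave 423, 287 and 295 in mutant and 337, 290 and 431 in control samples, a difference of -0.07 that was -0.24 without mutant sample 1. The third (1419646_a_at) gave 338, 295 and 387 in mutant and 320, 307 and 390 in control samples, a difference of 0.00. Their groups overlapped throughout. The difference of the probe set 1425263_a_at was 0.38 (SE 0.30), the highest of the 21, and its signals were 162, 166 and 174 in mutant and 98.4, 207 and 89.3 in control samples. Control sample 2 was above and the other controls below all mutants. The probe set 1451961_a_at differed by 0.10 (SE 0.21), and by 0.15 without mutant sample 1.

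The remaining 3 Mbp probe sets, all with names ending in _x_at, which marks possible cross-hybridisation, were each highest in mutant sample 1. The tested one (1456228_x_at) had signals of 353, 93.7 and 221 in mutant samples, against 222, 224 and 206 in control samples. Its difference of -0.12 became -0.51 when mutant sample 1 was left out. The probe set 1436201_x_at was at 226, 7.36 and 29.9 in mutant and 90.8, 102 and 86.0 in control samples, with differences of -0.63 and, without mutant sample 1, -1.49. The third (1454651_x_at) was at 143, 68.2 and 58.8 in mutant and 57.4, 48.4 and 108 in control samples, with differences of 0.24 and, without mutant sample 1, -0.07. The part of the decidual and uterine transcripts of mutant sample 1 in these signals was not tested.

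The neuronal genes gave no common shift. Stmn2, a microtubule regulator of growth cones, had the brighter of its probe sets (1423281_at) at 743, 439 and 675 in mutant samples, against 771, 685 and 341 in control samples. Each group held 1 low sample, mutant 2 and control 3. The log2 difference was 0.09 (SE 0.31), with a 95% interval from -0.61 to 0.79, and it was -0.26 without control sample 3 and -0.052 without mutant sample 1. The other probe set (1423280_at) gave 414, 263 and 331 in mutant and 267, 350 and 262 in control samples, a difference of 0.17 (SE 0.21) that was 0.020 without mutant sample 1.

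Tubb3, the neuronal class III beta-tubulin, was too dim to be tested. Its signals were 40.9, 12.6 and 105 in mutant samples, against 61.8, 48.5 and 87.3 in control samples. Mutant samples held both the highest and the lowest value. The difference of -0.39 became 0.05 without mutant sample 2.

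The 8 genes did not rank the samples in 1 order. Taking each gene's log2 value minus its own mean over the 6 arrays, the median over the 8 genes was 0.02, -0.30 and 0.12 in mutant samples 1, 2 and 3, against 0.15, 0.06 and -0.06 in control samples. Mutant sample 2 was the lowest of these. Its median over all tested genes was 0.0019, but those leave out genes as dim as Cdh19, Tubb3 and S100b. Mutant sample 2 had the lowest value for 3 of the 8 genes, the untested Cdh19, Tubb3 and S100b. It had the highest for another 3, Sox10, Mbp and Ngfr. Control sample 3 was lowest for Mbp, Fabp7 and Stmn2. The spread within groups was close to that of other genes, with a median SD of 0.21 on the log2 scale over the tested probe sets of these genes and 0.20 over all tested probe sets.

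The remaining genes of the Schwann lineage gave no call either. Of 24 listed genes, 21 were annotated on the array and 14 tested, and 0 passed, with 0 at an unadjusted p under 0.05 in limma. There were 10 positive and 11 negative differences, with a median of -0.00085. Without mutant sample 1 the median was -0.065, and 3 genes, picked with their values in view, were lower at an unadjusted p under 0.05. They were Cnp, a myelin enzyme, at -0.85 (limma adjusted p 0.159), the adhesion molecule Ncam1 at -0.49 (adjusted p 0.313) and the integrin gene Itgb8 at -0.72 (adjusted p 0.585). With all samples these differed by -0.34, 0.04 and -0.07. Each had its highest signal in mutant sample 1 and mutant samples 2 and 3 below all controls. The name of the Cnp probe set ends in _x_at. How many of all tested probe sets reached that unadjusted level without mutant sample 1 was not counted. Erbb3, the receptor for the axonal growth factor neuregulin, which keratinocytes also make, had signals of 2993, 3052 and 2572 in mutant samples, against 2474, 2659 and 2560 in control samples. The groups overlapped and the difference was 0.16 (SE 0.13). Pou3f1, a transcription factor of Schwann cells about to form myelin and of epidermis, differed by -0.26, and Gfra3, an artemin receptor, by -0.31. Pmp22, a peripheral myelin protein also made in fibroblasts, differed by -0.14, and by -0.087 without mutant sample 1.

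Of 27 other neuron and axon genes, 26 were annotated and only 6 were bright enough to test, while the neurofilament genes Nefl and Nefm, Prph and Uchl1 were not. None of the 6 passed, and 13 genes were positive and 13 negative, with a median of -0.04. Tac1, the precursor of the sensory neuropeptide substance P, was the 1 gene with an unadjusted p under 0.05. Its signals were 1523, 631 and 845 in mutant samples, against 1661, 1877 and 1647 in control samples. Every mutant sample lay below every control, and mutant sample 1 was nearest to the controls. Which cells gave the Tac1 signal was not tested. The log2 difference was -0.87 (SE 0.28), with a 95% interval from -1.49 to -0.24 and a limma adjusted p of 0.9999 (unadjusted 0.0121).

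Without mutant sample 1, Tac1 passed the test, with a difference of -1.21 and a limma adjusted p of 0.0167. In that fit 39 of 22518 probe sets passed (0.173%), none of them a probe set of the 8 genes. The call was also made with array weights (adjusted p = 0.0237), which were 0.257, 0.560 and 3.13 for mutant samples 1, 2 and 3. Among mutants, that setting leaned most on mutant sample 3. The call was not made in the other 15 of 17 settings, where the difference stayed negative. A dim second probe set of Tac1, at most 90.1 in mutant and 91.5 in control samples, differed by -0.10. Dpysl3, Map1b and Nsg1, cytoskeletal and vesicle genes of growing neurons, differed by -0.17, -0.13 and -0.10, and Nsg1 by -0.0028 without mutant sample 1.

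Of 20 neurotrophic ligands, guidance cues and their receptors, 17 were annotated and 14 tested, 0 passed, and the median difference was -0.11, with 7 positive and 10 negative. Gfra2, the receptor subunit that binds neurturin, a survival factor of sensory and autonomic neurons, had signals of 579, 363 and 451 in mutant samples, against 712, 904 and 624 in control samples. The groups did not overlap for this probe set. The difference was -0.66 (SE 0.21), with a limma adjusted p of 0.9999 (unadjusted 0.0118). The name of this probe set also ends in _x_at. The other Gfra2 probe sets gave smaller differences, of -0.18, -0.35, -0.28 and -0.23. Slit2, a secreted axon guidance cue, had 891, 786 and 801 in mutant and 980.0, 1004 and 996 in control samples, likewise without overlap. It differed by -0.26 (SE 0.13, unadjusted p 0.0835 in limma). Gfra1, a GDNF receptor, differed by -0.36, and by -0.66 without mutant sample 1 (limma adjusted p 0.494, unadjusted 0.0089). Another tested Gfra1 probe set (1450440_at) differed by -0.53, and by -0.38 without mutant sample 1. Nrp1, a semaphorin receptor also made by endothelium, differed by 0.23, and by 0.090 without that sample. Without it, Gfra1, Gfra2 and Slit2 were lower at an unadjusted p under 0.05 and 0 of 14 genes passed. The share of all tested probe sets at that unadjusted level was not counted in that fit.

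**Figure D3:**
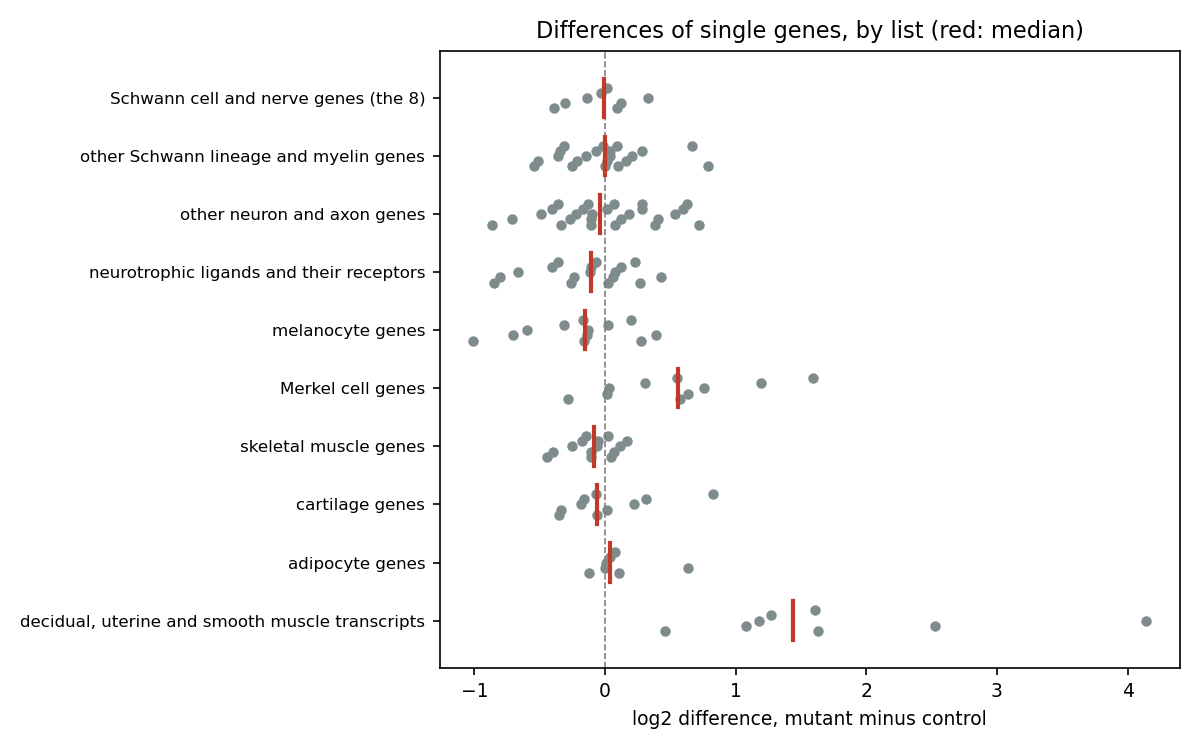
Each point is 1 gene (brightest probe set), placed by its log2 difference, mutant minus control, and red bars are list medians. The medians of the 8 Schwann cell and nerve genes and of the other Schwann lineage genes lie close to 0, whereas the Merkel cell list has a median of 0.56 and the decidual, uterine and smooth muscle list one of 1.44.

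Melanocytes share Sox10 and S100b with Schwann cells, and 9 of 12 melanocyte genes were tested, with 0 passing. The median was -0.15, with 4 positive and 8 negative differences, and the summed signal of the list was 5397 to 7177 in mutant and 5975 to 6739 in control samples. Tyrp1, a pigment enzyme, had signals of 172, 194 and 84.4 in mutant samples, against 272, 247 and 446 in control samples. The groups did not overlap. The difference was -1.01 (SE 0.32, limma adjusted p 0.9999, unadjusted 0.0119). The Tyrp1 probe set 1415862_at gave -1.09, also without overlap (limma adjusted p 0.673, unadjusted 0.0021). For 1439409_x_at it was -1.02, with overlapping groups (limma adjusted p 0.9999, unadjusted 0.0869). Pmel, a melanosome protein, differed by -0.31, Slc45a2, a melanosomal transporter, by -0.60, and Ednrb, the endothelin receptor of melanoblasts, by 0.28. Without mutant sample 1 these were -0.18, -0.18 and 0.14.

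Merkel cells, the epidermal touch receptor cells contacted by sensory axons, were represented by 10 genes, 9 of them with a positive difference (median 0.56) and 3 tested. The median was 0.50 without mutant sample 1. The list summed to 6627, 2838 and 2911 in mutant samples, against 1693, 1745 and 1674 in controls, and it came mostly from Krt8 and Krt18, keratins that simple epithelia make as well. Krt8 had signals of 2644, 1280 and 1395 in mutant samples, against 715, 811 and 645 in control samples. The groups did not overlap, with a difference of 1.19 (SE 0.26, limma adjusted p 0.571, unadjusted 0.0013). Without mutant sample 1, Krt8 differed by 0.87 (limma adjusted p 0.0700). Its other probe sets, 1423691_x_at and 1435989_x_at, differed by 1.04 and 1.80, also without overlap (limma adjusted p 0.426 and 0.334). Krt18 differed by 1.60 (limma adjusted p 0.9999, unadjusted 0.0094), and by 0.92 without mutant sample 1. Of the 3 tested genes, 2 were at an unadjusted p under 0.05 in limma, against 3.42% of all tested probe sets. These 2, Krt8 and Krt18, were both highest in mutant sample 1. The list was chosen with earlier results of these data known, so this count is no test of it.

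The other Merkel cell genes were mostly dim. Gfi1, a transcription factor of the lineage and the third tested gene, differed by 0.02 (unadjusted p 0.951 in limma), and by -0.093 without mutant sample 1. Pou4f3 and Sst, too dim to be tested, differed by -0.28 and 0.03, and by 0.047 and 0.16 without that sample. Atoh1, the transcription factor that Merkel cells require, had 105, 136 and 99.0 in mutant samples, against 50.3, 69.9 and 91.4 in control samples, without overlap. The exact two-sided permutation p was 0.1. Krt20, a keratin of Merkel cells, had 121, 68.5 and 62.2 in mutant samples, against 35.2, 25.2 and 81.1 in control samples, and its groups overlapped. Atoh1 and Krt20 were below the level for testing, and these 2 genes, Pou4f3 and Sst were picked with their values in view. The brightest Krt8 probe set passed in 1 of 17 other settings, array weights (adjusted p = 0.0287), in which mutant sample 3 had the largest weight.

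**Figure D4:**
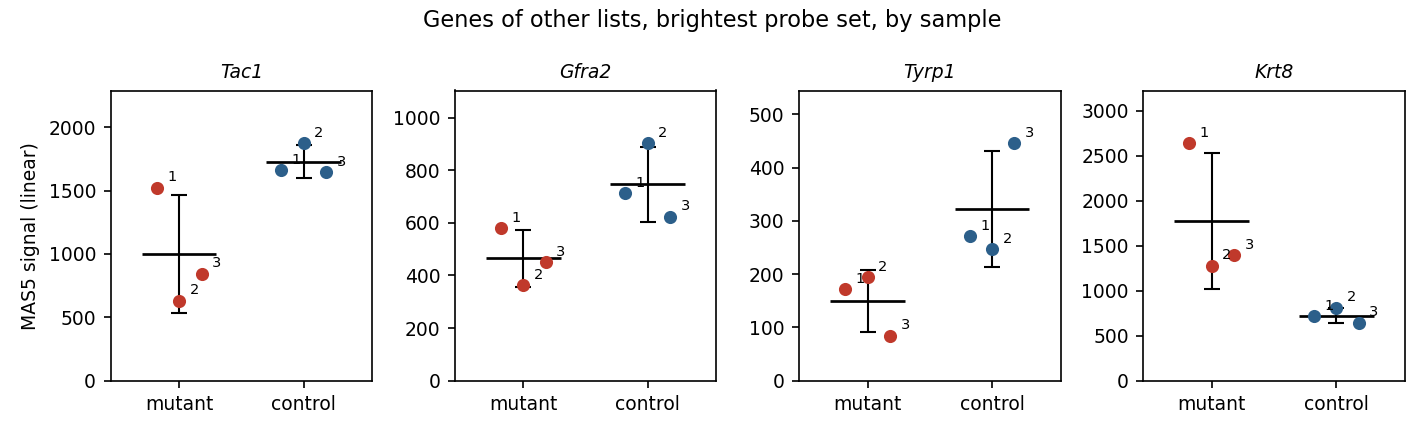
Linear MAS5 signal by sample for Tac1, Gfra2, Tyrp1 and Krt8, with points for single samples numbered 1 to 3, lines for group means and bars for the SD (n = 3). Mutant points lie below all control points for Tac1, Gfra2 and Tyrp1 and above them for Krt8, and mutant sample 1 is the closest to the controls for Tac1 and the farthest for Krt8.

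Other tissues in which some of the 8 genes are also made showed no call. The summed signal of 14 skeletal muscle genes was 124947 to 134976 in mutant and 127167 to 146881 in control samples, with a median difference of -0.08 (-0.14 without mutant sample 1). Among them Myh8, the perinatal myosin heavy chain, differed by -0.44 (SE 0.17, unadjusted p 0.0256 in limma, adjusted 0.9999). The 10 cartilage genes had a median of -0.06 and the 7 adipocyte genes one of 0.04, which were -0.12 and -0.15 without mutant sample 1. The decidual, uterine and smooth muscle list summed to 69747, 1113 and 1038 in mutant samples, against 791 to 1169 in controls, with a median difference of 1.44 that was -0.04 without mutant sample 1. The part of this material in the other results was not tested beyond the values given without that sample.

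The genes whose pattern was closest to that of the brightest Sox10 probe set were found by the root mean square difference of centred log2 values over the 6 arrays. They were Phpt1, a protein histidine phosphatase, at 0.023, Notum, a secreted Wnt inhibitor, at 0.024, P4ha1, a collagen prolyl hydroxylase, at 0.029, Map4k5, a kinase, at 0.031 and Kif18b, a mitotic kinesin, at 0.031. Sox10 itself ranged over 0.40 on the log2 scale. Among 20036 ranked probe sets, the nearest of the other Schwann cell and nerve genes was an Mbp probe set (1451961_a_at) at rank 3046, and the brighter Stmn2 probe set stood at rank 17937.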

How the data were processed

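Total RNA of 6 skin samples was hybridised to Affymetrix mouse arrays. The authors deposited a linear intensity for each probe set, the MAS5 signal (named per the submitters' processing notes, version not given in the sources used here), and each array's mean after trimming 2% at each end was 500. Median signals per array were 110.0 to 131. Detection calls were not used here. The number of arrays limits the precision.

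Values were analysed as log2(signal + 24.4), the constant being the 20th percentile. The 64 control probe sets were left out, and 22518 of 45101 probe sets with a mean log2 above the median (a signal of about 114) entered the test, limma 3.58.1 run in R 4.3.3 (lmFit, eBayes with trend, two-sided, Benjamini-Hochberg over all tested), which was checked on simulated data. Exact permutation of 3 against 3 samples cannot go below 0.1. Genes were named from the platform annotation (34958 probe sets with 1 symbol, 932 with several, 9211 with none), updated by gene identifier through RefSeq (GRCm38.p6). A gene's brightest probe set stood for it. Named were all probe sets of the 8 genes, Tfap2c, up to 4 genes of each list by smallest p, the 3 brightest decidual, uterine or smooth muscle genes and the 5 genes most like Sox10. Cnp, Ncam1, Itgb8, Atoh1, Krt20, Pou4f3, Sst, the GDNF family in the closing section and the axon genes too dim to test fall outside that rule. The members and lists were chosen with earlier results of these data known. Figures were drawn with matplotlib 3.10.9. Other settings were pseudocounts of 1 and 100, no filter and one at the 25th percentile, quantile normalization, centring on array medians, a variance prior that was robust or had no trend, array weights, a replicate block, an Xist covariate, an adjusted p under 0.1, the mean over probe sets, and each sample left out.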

Additional observations from a re-analysis of the deposited data

How the results depend on the processing

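No probe set of the 8 genes passed in any of the 18 alternatives that count calls, and their median difference stayed between -0.12 and 0.12 (-0.0084 with all samples). Over all probe sets, 1 passed with all samples, 106 with array weights, 8 with the replicate block and 1 to 39 with 1 sample left out (39 without mutant sample 1, 3 without control sample 2, 2 without mutant sample 2). The array weight was largest for mutant sample 3. In the other lists 0 genes passed with all samples, 2 (Tac1 and Krt8) with array weights and 0 to 1 (Tac1) with 1 sample left out. Samples of the same number did not deviate together (correlations of -0.052, -0.073 and 0.11), and the replicate block called 0 probe sets of the 8 genes. Among tested probe sets, values with the other sign, none past the threshold and with causes not tested, were Mbp (1419646_a_at) at -0.0078 and Phpt1 at -0.0060 with median centring, Phpt1 at -0.0088 with quantile normalization, and, with array weights, Tfap2c at -0.0051, Dpysl3 at 0.12, Nsg1 at 0.062 and P4ha1 at 0.080. With the Xist covariate they were Sox10 (1451689_a_at) at -0.0045, Mbp at -0.029 (1419646_a_at) and 0.043 (1456228_x_at), Phpt1 at -0.013, Notum at -0.012, Map4k5 at -0.0049 and Kif18b at -0.010. Among the untested probe sets of the 8 genes, Tubb3 was at 0.24 and Mbp (1454651_x_at) at -0.043 with array weights, and Ngfr (1421241_at) at -0.054 and Cdh19 at 0.00064 with the Xist covariate. With 1 sample left out, 8 of the 12 tested probe sets of the 8 genes changed sign at least once. The ranges were -0.059 to 0.14 and -0.0054 to 0.43 for Sox10, -0.24 to 0.074, -0.088 to 0.10 and -0.51 to 0.33 for Mbp, -0.072 to 0.25 for Fabp7, -0.26 to 0.31 for Stmn2 and -0.17 to 0.084 for Ngfr. Other genes that did so were Dpysl3 (-0.38 to 0.0055), Map1b (-0.26 to 0.039), Nsg1 (-0.27 to 0.048), Prl8a2 (-0.0098 to 3.80), Actg2 (-0.073 to 2.59), Phpt1 (-0.080 to 0.14), Notum (-0.061 to 0.16), P4ha1 (-0.092 to 0.13), Map4k5 (-0.043 to 0.13) and Kif18b (-0.051 to 0.13). The dim probe sets, whose signals lie near the added constant, moved most with it.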

Other observations

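Ligands and receptors of the GDNF family, which support sensory and autonomic axons of the skin, were looked at together after the values of Gfra2 were seen, so no test of the family was made. Of 9 genes, 7 lay below 0 and 2 above, and the median difference was -0.31 (-0.38 without mutant sample 1). The 6 tested genes included 0 past the threshold, with all samples or without mutant sample 1. By probe set, 14 of 16 were negative with all samples, several of them too dim to be tested. Leaving out mutant sample 1 changed the sign of Nrtn (0.0028), Gfra1 1421973_at (0.11), Gfra2 1425578_a_at (0.32) and Pspn (-0.13). Gfra1, the GDNF receptor subunit, had signals of 416, 214 and 202 in mutant samples, against 309, 417 and 314 in control samples, and mutant sample 1 alone lay within the control range. A dimmer tested Gfra1 probe set (1450440_at) gave 74.8, 117 and 103 in mutant and 198, 139 and 123 in control samples, without overlap. There mutant sample 1 was lowest, and the difference was -0.53, or -0.38 without that sample. With all samples, all 5 probe sets of Gfra2 were negative, from -0.66 for the brightest to -0.18. Their groups did not overlap for the brightest and for 1 other (1459847_x_at). Nrtn, its ligand, was at 551, 1000 and 865 in mutant and 953, 857 and 979 in control samples, with overlapping groups. The shared receptor Ret and the ligand Artn were too dim to be tested. Pspn and the receptor gene Gfra4 had positive differences.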
